A study of Homo sapiens with 4 samples.

Results

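The thioredoxin and peroxiredoxin family is the set of genes that passes electrons from NADPH through thioredoxin to peroxides and oxidized proteins. Its members here were chosen by gene symbol: the thioredoxins TXN and TXN2, the reductase TXNRD1, the thioredoxin-binding protein TXNIP, and the peroxiredoxins PRDX1 to PRDX6. These are 10 of the 23228 genes in the count data. All 10 were found by name and all 10 had enough counts to be tested.

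The samples were cells of ES2, an established line of human ovarian cancer, grown in RPMI medium with 10% fetal bovine serum. The cells received vehicle (0.1% DMSO) or EC359, a small-molecule inhibitor of the leukemia inhibitory factor receptor LIFR, at 10 nM for 12 h. There were 2 RNA-seq libraries for each treatment, so the comparison asks how EC359 changed transcript levels in 1 cell line at 1 dose and 1 time. The study describes them as biologically independent samples, while the labels do not say whether they came from separate cultures, so p-values measure the spread between these libraries.

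Thioredoxins carry a pair of neighbouring cysteines that reduce disulfides in other proteins and become oxidized in turn. Thioredoxin reductase, a selenoprotein, restores them with NADPH. Peroxiredoxins are peroxidases in which a cysteine attacks hydrogen peroxide, organic peroxides or peroxynitrite, and most of them are regenerated by thioredoxin. TXNIP binds reduced thioredoxin and blocks it, and its gene is known for its response to glucose. In many tumours the pathway is abundant, and it works beside the glutathione system in limiting oxidative damage.

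The coding sequences around the catalytic residues show what the members share and where they part. They were read from GRCh37, the assembly that UCSC names hg19, on the coding strand from 5′ to 3′, with the codons of the redox residues in capitals. Codons are numbered from the start codon of the transcript used for each gene. In TXN these are codons 32 and 35, and in TXN2 codons 90 and 93. In TXNRD1 they are the cysteine and selenocysteine codons 647 and 648 at the very end of the protein, where the triplet TGA is read as selenocysteine and not as a stop.
TXN, chr9:113013656-113013685, minus strand, exon 2: tcagccacgtggTGTgggcctTGCaaaatg
TXN2, chr22:36872882-36876629, minus strand, exons 2 and 3 with the intron removed: cacgcacagtggTGTggacccTGCaagatc
TXNRD1, chr12:104742176-104742199, plus strand, exon 17: ctccaggctggcTGCTGAggttaa

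In the peroxiredoxins the capitals mark the peroxidatic cysteine, the residue that reacts with the peroxide. It is codon 52 in PRDX1, 51 in PRDX2, 108 in PRDX3, 124 in PRDX4, 100 in PRDX5 and 47 in PRDX6.
PRDX1, chr1:45981415-45981444, minus strand, exon 3: ttcacctttgtgTGCcccacggagatcatt
PRDX2, chr19:12911819-12911848, minus strand, exon 3: ttcacttttgtgTGCcccaccgagatcatc
PRDX3, chr10:120933357-120933964, minus strand, exons 3 and 4 with the intron removed: ttcacctttgtgTGTcctacagaaattgtt
PRDX4, chrX:23689762-23693134, plus strand, exons 2 and 3 with the intron removed: ttcacatttgtgTGTccaactgaaattatc
PRDX5, chr11:64087320-64088141, plus strand, exons 2 and 3 with the intron removed: ttcacccctggaTGTtccaagacacacctg
PRDX6, chr1:173450496-173450525, plus strand, exon 2: tttaccccagtgTGCaccacagagcttggc

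Within these windows of 30 bases, PRDX1 and PRDX2 were identical at 27 bases, the most of any pair compared. PRDX3 and PRDX4 were identical at 25 bases, whereas PRDX6 matched PRDX1, PRDX2 and PRDX3 at 19 bases each and PRDX4 at 17. Over the aligned coding sequence, identity among PRDX1 to PRDX4 ran from 62.8% for PRDX2 with PRDX3 to 72.4% for PRDX1 with PRDX2. PRDX4 and PRDX5 shared no stretch of 50 bases, the read length, with any annotated transcript of another gene. The same held for TXN2, TXNRD1 and TXNIP. Stretches shared with another gene made up 1.26% of the PRDX3 transcript, 1.22% of PRDX6 and 5.52% of TXN. They made up 22.26% of PRDX2 and 36.16% of PRDX1, and these values are taken up with the results for each gene.

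As a check of the label, KRT18, a keratin of simple epithelia, had 7006 to 7759 normalized counts, and KRT8, its partner, 618 to 681. Normalized counts are read counts scaled to the mean library size. VIM, the intermediate filament of mesenchymal cells, had 135415 to 157710, and its difference between treatments was -0.17 on the log2 scale (adjusted p = 0.0135). The epithelial adhesion genes EPCAM and CDH1 had at most 2.22 and 0.934 normalized counts, and PAX8, a transcription factor of Müllerian epithelium, had 26.7 to 38.3. The ES2 libraries thus carried keratin and vimentin transcripts with next to none of EPCAM and CDH1. Of the markers of other cells, CD3E and HBB were at 0 in all 4 libraries, and PTPRC, PECAM1 and CD79A reached at most 3.74. CD68, a lysosomal protein of macrophages that other cells also make, had 2527 to 2717. Of the 50-base stretches of the CD68 transcript 97.16% also occur in other annotated genes, so its counts are uncertain. This share was 54.25% for KRT18, 39.19% for KRT8 and 37.81% for VIM. Reads counted on genes numbered from 25572494 to 31707553 per library, and the EC359 libraries were both deeper than the vehicle libraries. The part of this depth difference in the results was not tested.

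Compared by level per length, the family was abundant in ES2 cells. Levels here are normalized counts per kilobase of transcript, given as mean ± SD of the 2 vehicle libraries, and the percentile is the place among 12185 tested genes with a known length. PRDX1, a cytosolic peroxidase, was at 19149 ± 222 and at percentile 99.6. PRDX3, the mitochondrial peroxidase that works with TXN2, followed at 7775 ± 254. PRDX1 was thus well apart from the rest of the family, and PRDX3 was above every gene after it in both libraries.

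A group of 5 genes came next with levels close to each other: TXNRD1 at 6684 ± 170, PRDX4 at 6608 ± 197, TXN at 6570 ± 482, PRDX6 at 6352 ± 22.4 and PRDX5 at 6234 ± 449. Each neighbouring pair in this group overlapped between the vehicle libraries, so their order is not resolved. PRDX2, another cytosolic peroxidase, was lower at 5455 ± 215, and these 6 genes lay between percentiles 97.4 and 98.1. TXN2, the mitochondrial thioredoxin, was at 1564 ± 130 and percentile 88, and TXNIP was lowest at 848.9 ± 1.78 and percentile 77.5. The cytosolic TXN was therefore far above its mitochondrial counterpart in every library, and TXNIP was below all other members in every library.

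With EC359 the order of the mean levels per kilobase was the same, from PRDX1 at 16873 ± 198 to TXNIP at 956.1 ± 0.169. The order in the middle depended on the length used. When all counts of a gene were divided by its unique stretches alone, PRDX1 and PRDX3 stayed first and second in vehicle. PRDX2 then moved from place 8 to place 4. The counts were left whole, so this measure raises the values of genes with shared stretches.

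**Figure D1:**
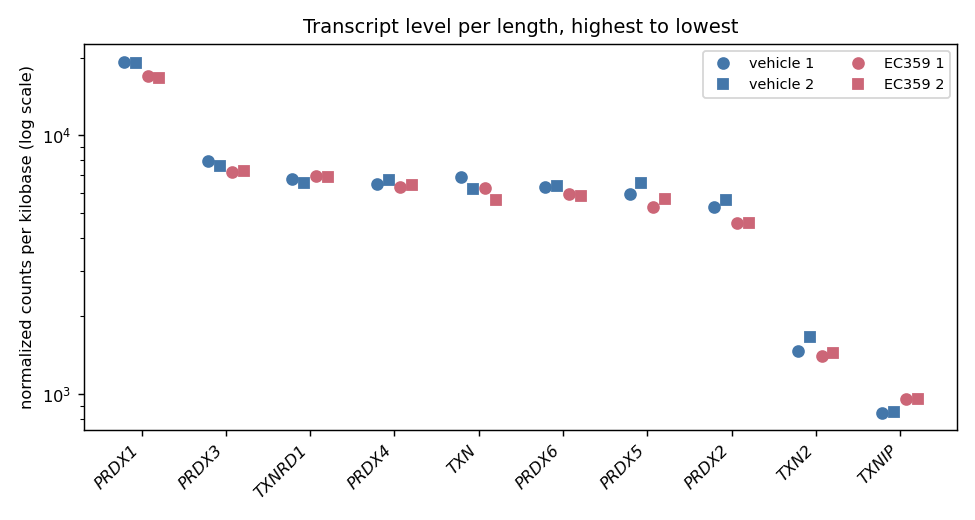
Normalized counts per kilobase of transcript on a log axis for the 10 genes, ordered by the vehicle mean, with a point for each of the 2 vehicle (blue) and 2 EC359 (red) libraries. PRDX1 stands at the top at 19149 in vehicle, TXNRD1, PRDX4, TXN, PRDX6 and PRDX5 lie close together between 6234 and 6684, and TXNIP is lowest at 848.9.

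In the comparison of treatments across all 12706 tested genes, a gene counted as called below an adjusted p of 0.01. By this rule 0.795% of genes were called lower with EC359 and 0.299% higher. Of the 10 members 2 were called lower, PRDX1 and PRDX2, and 0 were called higher. The log2 fold change was below 0 in 8 of the 10 members and in 6230 of all 12706 tested genes. The median of the members was -0.122 against 0.003 over all tested genes. The changes were small, from -0.25 to 0.17 on the log2 scale, and the median absolute value was 0.139 against 0.091 over all tested genes. In bulk RNA, a change in the make-up of the culture and a change in RNA per cell cannot be told apart.

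At an adjusted p under 0.05, 2.64% of all genes were lower and 1.68% higher, and among the members this added TXNIP as higher. Before adjustment, a p under 0.05 was reached downward by 11.0% and upward by 10.7% of all genes, against 7 and 1 of the 10 members. Both EC359 libraries were below both vehicle libraries in 25.4% of all genes and above them in 26.1%. Among the members this separation was downward in 7, upward in 2, and absent in TXN alone.

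**Figure D2:**
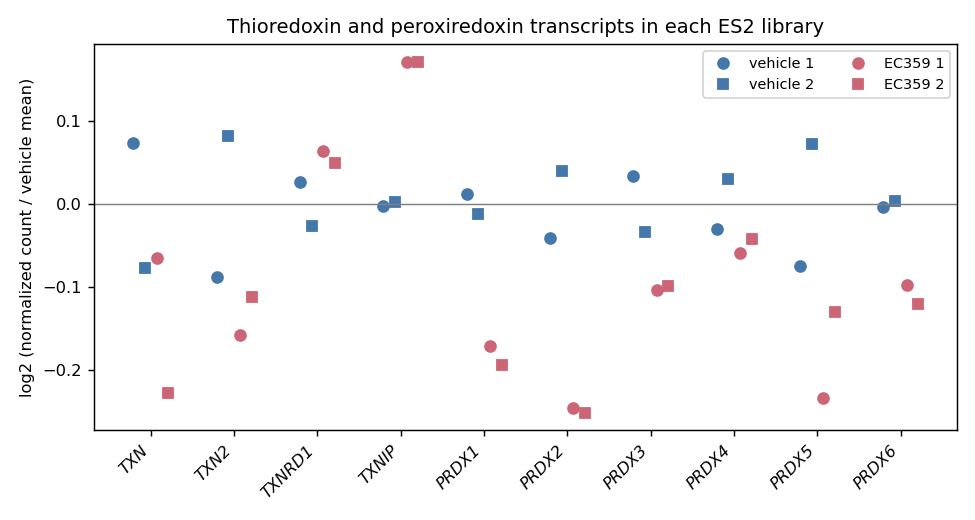
The log2 ratio of the normalized count in each library to the vehicle mean, for the 10 genes, with vehicle in blue and EC359 in red and replicate 1 as circles, replicate 2 as squares. Both EC359 libraries lie below both vehicle libraries for TXN2 and PRDX1 to PRDX6 and above them for TXNRD1 and TXNIP, and the treatments overlap for TXN.

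The peroxiredoxins that were called were both of the typical 2-Cys kind, which work as dimers and are reduced by thioredoxin. PRDX3 and PRDX4 are of this kind too and were not called. PRDX5, of another kind, had a log2 fold change of -0.18, the same size as that of PRDX1. PRDX2, located at chr19:12907634-12912614 on the minus strand, is a cytosolic peroxidase known from red blood cells but made in most tissues. Its normalized counts were 4905 and 5186 in the vehicle libraries and 4255 and 4239 in the EC359 libraries, replicate 1 first. The EC359 libraries were nearly equal and both were below the vehicle libraries. PRDX2 fell by 15.8%, from 5046 ± 199 to 4247 ± 11.2 (SD, n = 2 each). This is a log2 fold change of -0.25, with a standard error of 0.039, a 95% interval of -0.34 to -0.16 and an adjusted p of 0.0079. Across 10 other fits to all 4 libraries PRDX2 stayed lower and was called in 8 (adjusted p from 1.45e-07 to 0.0151). The calls lost were those with total counts only (0.0117) and without the filter (0.0151). It also lost the call when either EC359 library was left out, as did almost all called genes. With any 1 library left out, its log2 fold change stayed between -0.29 and -0.21.

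PRDX1, at chr1:45976586-46008404 on the minus strand, is the most abundant peroxiredoxin of the cytosol and nucleus in many cells. In the vehicle libraries it had 18244 and 17947 normalized counts, and in the EC359 libraries 16077 and 15812. The gap between treatments was several times the gap between replicates. PRDX1 fell by 11.9%, from 18096 ± 210 to 15945 ± 187, with a log2 fold change of -0.18, a standard error of 0.03, a 95% interval of -0.25 to -0.12 and an adjusted p of 0.00963. This p lay just inside the threshold, and the call was made in 6 of the 10 other fits, over which the adjusted p ran from 1.8e-08 to 0.033. It was lost with total counts only (adjusted p = 0.0153), without the filter (0.0179), with at least 10 counts in every library (0.0107) and after removal of the length trend (0.033). Without EC359 replicate 1 or 2 it was also lost, as it was for almost all called genes. The log2 fold change of PRDX1 was then -0.195 and -0.171.

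The annotation of these 2 genes overlaps that of neighbours. MMACHC, a cobalamin-processing enzyme, lies on the opposite strand of the PRDX1 locus and shares 35.38% of the stretches of the PRDX1 transcript. MMACHC had 660 ± 53.2 normalized counts in vehicle and 636.9 ± 5.15 with EC359, a log2 fold change of -0.05 (adjusted p = 0.746), and was thus far below PRDX1. For PRDX2 the largest share, 17.35%, was with an annotated RNA of the opposite strand that has no symbol. HOOK2, on the same strand, had 120.7 ± 5.6 and 138.4 ± 33.2 normalized counts. The libraries were stranded, but the strand setting of the counting is not given in the sources used here, so the part of overlapping reads in the change was not tested.

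PRDX3 (chr10:120927232-120938324, minus strand) and PRDX4 (chrX:23682379-23704514, plus strand) are the other typical 2-Cys members. PRDX3 had 12354 and 11795 normalized counts with vehicle and 11239 and 11273 with EC359, a log2 fold change of -0.10 with an adjusted p of 0.114. PRDX4, the peroxiredoxin of the endoplasmic reticulum, had 6184 and 6450 against 6063 and 6134, a log2 fold change of -0.05 with an adjusted p of 0.448. In both genes the EC359 libraries were below the vehicle libraries, but neither passed the test. Over the 10 other fits to all 4 libraries PRDX3 was called in 2 and PRDX4 in 0. The 95% interval of PRDX3, -0.18 to -0.03, lay below 0, and that of PRDX4, -0.13 to 0.03, spanned 0. These intervals are not adjusted for the number of genes tested.

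PRDX5 (chr11:64085593-64089283, plus strand), found in mitochondria, peroxisomes and cytosol, forms its disulfide within a single chain. It had 5088 and 5634 normalized counts in vehicle and 4559 and 4897 with EC359. Replicates within a treatment were farther apart than the closest libraries of the 2 treatments. The log2 fold change of PRDX5 was -0.18 with a standard error of 0.052, the same size as that of PRDX1 with a wider error, and the adjusted p was 0.0775 (1.45e-05 to 0.115 over the 10 other fits). Leaving out 1 library moved it to between -0.25 and -0.11, and it was called without vehicle replicate 1 (adjusted p = 0.00166).

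PRDX6 (chr1:173446469-173457954, plus strand) has a single catalytic cysteine, is reduced through glutathione and not thioredoxin, and also acts on phospholipids. Its counts were 10709 and 10762 in vehicle and 10032 and 9876 with EC359. These replicates were close, and the EC359 libraries were lower by 7.28% on average. This gave a log2 fold change of -0.11 with a standard error of 0.031 and an adjusted p of 0.0756, so that PRDX6 did not pass the test. It was called in 2 of the 10 other fits to all 4 libraries, with a replicate block and with the GC trend removed.

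Summed per kilobase, the 6 peroxiredoxins came to 51285 and 51859 in vehicle and 46429 and 46529 with EC359. Its mean change with EC359 was -9.88%, and the libraries of the 2 treatments did not overlap. An exact two-sided permutation test gave p = 0.333, the smallest that 2 libraries against 2 allow. The make-up of the sum moved little. PRDX1 held 37.6% and 36.6% in vehicle and 36.6% and 36% with EC359. PRDX2 held 10.3% and 10.8% against 9.91% and 9.85%, and PRDX4 held 12.6% and 13% against 13.7% and 13.8%. The share of PRDX2 was thus lower and that of PRDX4 higher in both EC359 libraries, whereas the shares of PRDX5 overlapped between treatments.

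TXN, the cytosolic thioredoxin, is the direct electron donor for most of these enzymes. Located at chr9:113006090-113018787 on the minus strand, it had 5094 and 4591 normalized counts in vehicle and 4628 and 4136 with EC359. The higher EC359 library exceeded the lower vehicle library, so the treatments overlapped. For TXN the log2 fold change was -0.14 with a 95% interval of -0.28 to -0.01 and an adjusted p of 0.199. Across the 10 other fits to all 4 libraries TXN was called in 2. These were the fits with a replicate block (adjusted p = 0.000417) and with the GC trend removed (0.00146). The log2 fold change of TXN rested on single libraries. It was -0.23 without EC359 replicate 1 and -0.22 without vehicle replicate 2. Without vehicle replicate 1 or without EC359 replicate 2 it was -0.07.

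TXN2, the thioredoxin of mitochondria (chr22:36863093-36877687, minus strand), had 1967 and 2212 normalized counts in vehicle and 1874 and 1934 with EC359. The vehicle replicates were farther apart than the nearest libraries of the treatments. Its log2 fold change was -0.13 with an adjusted p of 0.225, and TXN2 was called in 0 of the 10 other fits.

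TXNRD1, the cytosolic reductase and a textbook target of NRF2, is encoded at chr12:104609557-104744085 on the plus strand. Its counts were 26264 and 25337 in vehicle and 26974 and 26687 with EC359. The EC359 libraries were the higher ones, but by little. Its log2 fold change was 0.06 with a 95% interval of -0.01 to 0.12 and an adjusted p of 0.315. TXNRD1 did not pass the test, and a rise larger than the upper bound lies outside this interval.

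TXNIP, which binds reduced thioredoxin and restrains glucose uptake, was the only member with an increase at an adjusted p under 0.05. The gene lies at chr1:145438490-145442635 on the plus strand. It had 2454 and 2461 normalized counts in vehicle and 2768 in each EC359 library. Replicates were almost equal within each treatment, and the treatments were apart. The mean was 12.6% higher with EC359, which is a log2 fold change of 0.17 with a standard error of 0.041 and a 95% interval of 0.08 to 0.26. The adjusted p was 0.046, so TXNIP was not called at 0.01. Over the 10 other fits the adjusted p ran from 0.000821 to 0.103 (DESeq2), and leaving out 1 library gave 0.0428 to 0.389, with the log2 fold change at 0.17 each time.

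**Figure D3:**
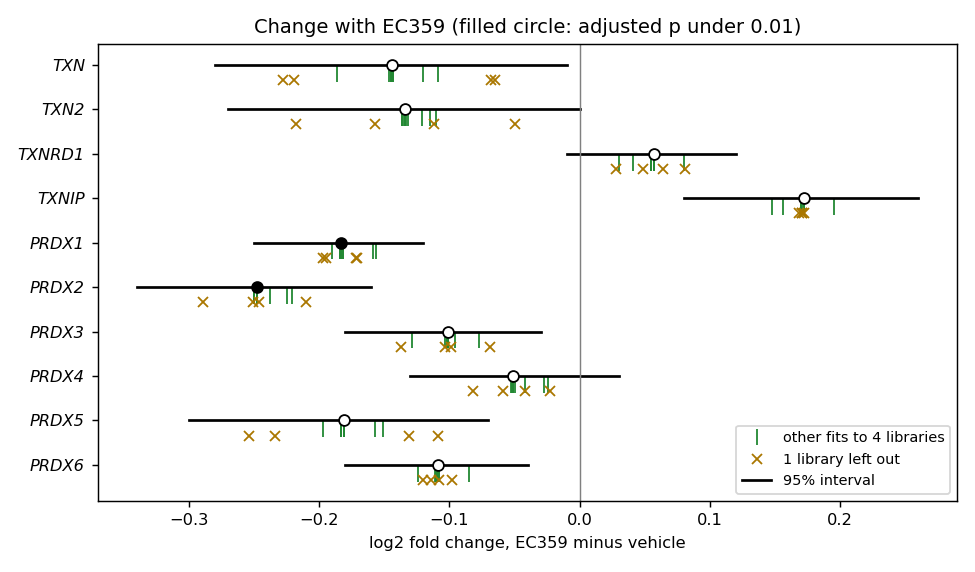
The log2 fold change of each gene, EC359 minus vehicle, with its 95% interval (black), the values of 10 other fits to the 4 libraries (green ticks) and those with 1 library left out (brown crosses). Filled circles mark PRDX1 (-0.18) and PRDX2 (-0.25), the genes with an adjusted p under 0.01, and no tick or cross lies on the other side of 0 from its gene's circle.

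Ratios between members put these values side by side. The level of TXN over that of its inhibitor TXNIP, both per kilobase, was 8.15 and 7.33 in vehicle and 6.57 and 5.87 with EC359, a mean change of -19.7%. TXNRD1 over TXN was 0.984 and 1.05 in vehicle and 1.11 and 1.23 with EC359. For both ratios the libraries of the treatments did not overlap, and the exact two-sided permutation test gave p = 0.333, the smallest it can give. The sum of the peroxiredoxins over TXN was 7.87 ± 0.64 in vehicle and 7.84 ± 0.635 with EC359, and its libraries overlapped (exact permutation p = 0.667).

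Transcript length was a property most members shared. TXNRD1 (3860 bases) and TXNIP (2895 bases), which were the 2 members higher with EC359, were the longest, and the other 8 were between 737 and 1690 bases. Of the 1788 tested genes within that range of lengths, 56.8% were lower with EC359 and the median log2 fold change was -0.032. Over all 12185 genes with a length, 48.6% were lower and the median was 0.004. After removal of each library's trend against length, PRDX2 kept its call (adjusted p = 0.00692) and PRDX1 did not (0.033), and the direction of all 10 members was kept. With the trend against G and C content removed instead, 7 members and 1128 of all genes were called. The part of length or of G and C content in the changes was not tested.

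RefSeq promoters of build GRCh38.p14, placed on GRCh37 by their sequence, were found for 7 members with 10 entries in all: TXN, PRDX2, PRDX3 and PRDX4 with 1 each and TXNRD1, TXNIP and PRDX5 with 2 each. TXN2, PRDX1 and PRDX6 had no entry. The 250 bases before each start were searched on both strands for short motifs, and a match is a description of letters only. The antioxidant response element core TGACNNNGC, known as the binding motif of NRF2, was in both TXNRD1 entries, against 10.9% of 35116 promoters. It was in no entry of the other members searched. The GC box GGGCGG was in 8 of the 10 entries, against 42.6%. The E-box CACGTG was in those of PRDX3 and PRDX4 (6.34% of all), TATAAA in that of TXN (10.7%), and TTCNNNGAA, the STAT motif, in 0 (6.57%). CCAAT was in 1 TXNIP entry and both TXNRD1 entries (32%).

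Promoters are printed for PRDX2, the member with the largest decrease, and for TXNIP, the member with the largest increase. That of TXNRD1 is added, the only one of the 7 members searched with the antioxidant motif. They are given in the direction of transcription and end 1 base before the start, with matches to the motifs in capitals. In PRDX2 the match is a GC box on the minus strand, 150 to 145 bases before the start. In TXNIP the capitals are CCAAT boxes on the minus strand 140 to 136 and on the plus strand 105 to 101 bases before the start. The TXNRD1 entry holds the antioxidant core on the minus strand 102 to 94 bases before the start, a CCAAT box on the plus strand and GC boxes on both. The G and C content was 75.2% in the PRDX2 promoter, 63.6% in that of TXNIP and 52.4% in that of TXNRD1.
PRDX2, chr19:12912615-12912864, minus strand: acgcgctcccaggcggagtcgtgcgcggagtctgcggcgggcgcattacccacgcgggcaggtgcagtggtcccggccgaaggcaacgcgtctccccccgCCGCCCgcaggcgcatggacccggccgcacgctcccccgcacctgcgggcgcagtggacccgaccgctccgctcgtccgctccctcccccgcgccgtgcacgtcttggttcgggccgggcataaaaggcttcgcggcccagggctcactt
TXNIP, chr1:145438240-145438489, plus strand: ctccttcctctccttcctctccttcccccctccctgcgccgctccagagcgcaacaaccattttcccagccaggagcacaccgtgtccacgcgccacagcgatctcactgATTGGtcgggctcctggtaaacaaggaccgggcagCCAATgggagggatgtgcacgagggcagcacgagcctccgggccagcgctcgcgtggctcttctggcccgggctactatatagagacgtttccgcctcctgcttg
TXNRD1, chr12:104680560-104680809, plus strand: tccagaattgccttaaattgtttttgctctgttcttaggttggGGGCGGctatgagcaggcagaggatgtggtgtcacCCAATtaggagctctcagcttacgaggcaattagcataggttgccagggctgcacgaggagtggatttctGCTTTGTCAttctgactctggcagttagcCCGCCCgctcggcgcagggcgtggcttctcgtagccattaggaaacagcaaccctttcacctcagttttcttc

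Genes around the pathway were counted from 8 lists, 70 genes in all, of which 66 had enough counts. Of these, 0 passed the 0.01 threshold by the quasi-likelihood test, 0 by DESeq2, 0 by limma voom and 1 by edgeR's exact test. Before adjustment, 8 of the 66 reached a p under 0.05 downward and 9 upward, against 11.0% and 10.7% of all tested genes. Values were below 0 on the log2 scale in 29 and above 0 in 37, and the median was 0.024, so the direction of the peroxiredoxins was not shared by most of the wider system. Genes named from each list are the pair with the lowest unadjusted p, and their values did not pass the test.

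The 17 relatives were mostly proteins with the thioredoxin fold, pooled with the reductases TXNRD2 and TXNRD3. They gave a median of 0.024 on the log2 scale, 10 being higher and 7 lower. The membrane-bound oxidoreductases TMX1 and TMX4 had log2 fold changes of 0.10 ± 0.034 (standard error, adjusted p = 0.142) and 0.12 ± 0.048 (0.189). The list of sulfiredoxin, sestrins and methionine sulfoxide reductases held 8 genes. SRXN1, the sulfiredoxin that reactivates typical 2-Cys peroxiredoxins, had 5198 ± 112 normalized counts in vehicle and 4773 ± 45 with EC359. This is a log2 fold change of -0.12 with an adjusted p of 0.079. SESN2, a stress-induced sestrin, had 601.1 ± 31.2 and 701.7 ± 20.5, a log2 fold change of 0.22 with an adjusted p of 0.108. SRXN1 was thus on the side of PRDX1 and PRDX2 and SESN2 on the side of TXNIP, neither past the threshold. Of the stretches of the SRXN1 transcript 90.56% also occur in another annotated gene with no symbol, so its counts are uncertain.

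In the glutathione-linked list of 5 genes, GSR, the reductase of glutathione, had 1466 ± 13 normalized counts in vehicle and 1651 ± 91.5 with EC359 (log2 fold change 0.17, adjusted p = 0.109), and GLRX, a glutaredoxin, had 1308 ± 27 and 1183 ± 1.05 (-0.14, 0.162). Other peroxidases and superoxide dismutases numbered 10, of which GPX2, GPX7 and SOD3 were under the filter. CAT, the peroxisomal catalase, had 987 and 949.1 normalized counts in vehicle and 803.1 and 782.5 with EC359. Its log2 fold change of -0.29 was larger than that of any member, with an adjusted p of 0.0304 that missed 0.01. SOD2, the mitochondrial dismutase, had 1449 ± 52.3 and 1600 ± 51.1 (0.14, 0.166).

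In the NADPH supply list 7 of 11 genes were on the lower side, against 6230 of all 12706 tested genes, and the median was -0.047. Before adjustment, 4 of its genes reached a p under 0.05 downward and 0 upward, against 11.0% and 10.7% of all tested genes. IDH1, the cytosolic isocitrate dehydrogenase, had a log2 fold change of -0.14 ± 0.049 (adjusted p = 0.123), and PGD, an enzyme of the pentose phosphate pathway, of -0.10 ± 0.033 (0.125). The 5 thioredoxin clients had the highest median, 0.127, with 4 higher and 1 lower. Most of this list is subunits of ribonucleotide reductase, so the median describes mainly that enzyme. Before adjustment, 2 of these clients reached a p under 0.05 upward and 1 downward. Among them are the ribonucleotide reductase subunits RRM2, with 11148 ± 13.7 normalized counts in vehicle and 12192 ± 15.3 with EC359 (log2 fold change 0.13, adjusted p = 0.0407), and RRM1, with 11083 ± 233 and 12102 ± 5.51 (0.13, 0.0521). The subunits of this enzyme, which takes its electrons from thioredoxin or glutaredoxin, were thus higher in both EC359 libraries, at p values that missed 0.01.

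The relatives and regulators of TXNIP gave smaller values. Of the 7 alpha-arrestins and glucose-sensing transcription factors, 6 were tested and 0 had an unadjusted p under 0.05, and MLXIPL was under the filter. MLX, the partner of the transcription factors that drive TXNIP, had a log2 fold change of -0.09 (adjusted p = 0.272), and ARRDC3, an arrestin relative, of 0.10 (0.38). Of the 7 genes for selenocysteine insertion, on which TXNRD1 depends, 0 had an unadjusted p under 0.05. SEPHS1 and SECISBP2 had log2 fold changes of -0.09 (adjusted p = 0.237) and 0.13 (0.327).

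**Figure D4:**
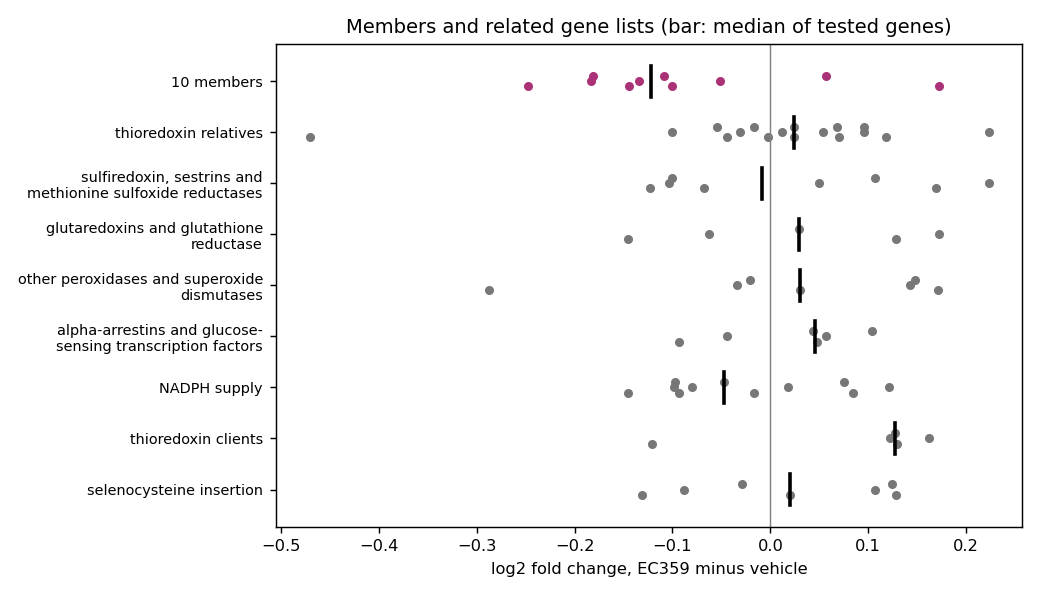
The log2 fold change, EC359 minus vehicle, of each tested gene (points) in the 10-gene family and in 8 related lists, with the median of each as a black bar. The family's median lies at -0.122, the lowest of these sets, and the medians of the related lists run from -0.047 for NADPH supply to 0.127 for thioredoxin clients.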

How the data were processed

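RNA from ES2 cells treated with EC359 or vehicle was sequenced as 50-base single-end reads from stranded polyadenylated RNA libraries, 2 per treatment. Per the submitters' processing notes and the study's methods, the authors used CASAVA 1.8.2, TopHat2 2.0.8b, hg19, NCBI RefSeq genes and HTSeq. The version and strand setting of HTSeq are not given in the sources used here. What the authors deposited are unnormalized counts for each gene symbol. Summary rows that name no gene were left out. Taken over reads on genes, on no gene or on several, 10.9% to 12% were on no gene and 0.852% to 0.879% on several. Alignments that were not unique are outside this total and numbered 15051182 to 18703790 per library.

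Of 23228 genes, filterByExpr of edgeR 4.0.16 (R 4.3.3) at 10 counts and a total of 15 kept 12706. Counts were scaled with TMM factors (0.9917 to 1.01) and fitted by glmQLFit and glmQLFTest without a block, and p was adjusted over all tested genes by Benjamini and Hochberg. The study's DESeq was not used here. Standard errors are the log2 fold change over the square root of F. The biological coefficient of variation was 3.5%. Replicates differed by more than counting noise (chi-square per degree of freedom 3.81 and 2.72), so each library counted as 1 replicate.

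Named genes were the 10 members and, from each list, the genes called or otherwise the pair with the lowest unadjusted p. MMACHC and HOOK2 were added, after the values were seen, because they overlap members. The members and lists were chosen with earlier results of these data known. Lengths, positions and codons came from GENCODE v44 lifted to GRCh37, with a length for 95.9% of tested genes. Shared sequence was the share of 50-base windows found in transcripts of other genes in either orientation. The count test was checked on simulated counts.

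Alternatives were scaling by RLE or by totals only, the exact test of edgeR, DESeq2 1.42.0, voom of limma 3.58.1, no filter or 10 counts in each library, a replicate block, removal of length or GC trends, an adjusted p under 0.05, and leaving out each library.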

Additional observations from a re-analysis of the deposited data

How the results depend on the processing

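No member changed direction in any of the 10 other fits to the 4 libraries or with a library left out. The count of called members, 2 of 10 as reported, was 0 with total counts only, 0 without a filter, 1 with at least 10 counts in every library, 1 with the length trend removed, 7 with the GC trend removed, 3 at an adjusted p under 0.05, and 0 to 3 with 1 library left out. Without EC359 replicate 1 or 2 it was 0. Called genes among all tested, 139 as reported, were 230 by DESeq2, 568 by the exact test, 61 without a filter, 1128 with the GC trend removed, 549 at an adjusted p under 0.05, and 0 to 467 with 1 library left out (0 without EC359 replicate 1 and 2 without EC359 replicate 2). With total counts only, 68 were lower and 52 higher, against 101 and 38. Called genes of the 8 lists, 0 as reported, were 1 by the exact test, 5 with the GC trend removed, 2 at an adjusted p under 0.05, and 0 to 1 with 1 library left out. The cause of these differences was not tested. A lone library was assumed to vary like the other treatment.

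The replicate numbers are shared by the treatments, but no label says that they mark a batch, and the deviations of the libraries numbered 1 correlated at 0.112 across genes. With a replicate block, 1539 genes, 7 members and 9 list genes were called.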
